A study of Mus musculus with 8 samples.

Results

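The genes described here are 9 small nucleolar RNA (snoRNA) host genes of the mouse, Gas5, Snhg1, Snhg3, Snhg5, Snhg6, Snhg8, Snhg12, Zfas1 and Epb41l4aos. They were taken from a list of symbols that was chosen with earlier results of these data known. All 9 were found among the 54532 rows of the gene count table, and all 9 were among the 9855 genes that passed the filter on low counts. The libraries came from intestinal epithelial cells of lactating females at lactation day 5, from 4 WT and 4 Rank-knockout mice, with 1 library per mouse. Rank is the receptor activator of NF-κB, encoded by Tnfrsf11a. According to the study a floxed Rank allele was deleted with a Cre driven by the Villin1 promoter. The study describes this knockout as specific to the intestinal epithelium and saw no Cre in mammary tissue. All lines were kept on a C57BL/6J background. The age of these animals, and whether the WT mice carried the floxed allele or the Cre, are not given in the labels. The p values below measure the spread between these 8 animals.

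snoRNAs are short nuclear RNAs that guide chemical marks onto ribosomal RNA. Those with a C box and a D box guide ribose methylation, and those that end in a short ACA tail, the H/ACA class, guide the conversion of uridine to pseudouridine. In mammals most of them are not transcribed alone but are cut out of the introns of other genes. In a snoRNA host gene the introns carry the snoRNAs, and what remains is a spliced, capped and polyadenylated RNA that makes no known conserved protein. Several such RNAs, Gas5 first among them, begin with a terminal oligopyrimidine (TOP) stretch, as the mRNAs of ribosomal proteins do, and are broken down by nonsense-mediated decay when they are translated. The library kit reads the 3′ ends of polyadenylated RNA, which the spliced host RNA has and mature snoRNAs lack.

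Between them the members held 33 annotated snoRNA genes on their own strand. Snord80 in Gas5 and Snora16a in Snhg12 are each annotated more than once at the same place, and every entry is counted. Examples from 5 hosts are shown here to tell the box C/D hosts from the box H/ACA hosts. The letters are from GENCODE M21 on GRCm38, are written 5′ to 3′ with T for U, and are given with their strand. Capitals mark a C box, TGATGA, and a D box, CTGA, in the box C/D snoRNAs, and the letters ACA near the 3′ end in the box H/ACA snoRNA.
Snord47 in Gas5 (chr1:161038082-161038158, plus strand): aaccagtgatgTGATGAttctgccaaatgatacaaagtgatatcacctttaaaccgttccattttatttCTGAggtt
Snord12 in Zfas1 (chr2:167065276-167065365, plus strand): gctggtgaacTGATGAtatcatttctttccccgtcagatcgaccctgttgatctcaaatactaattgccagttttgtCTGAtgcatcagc
Snord50a in Snhg5 (chr9:88521529-88521600, minus strand): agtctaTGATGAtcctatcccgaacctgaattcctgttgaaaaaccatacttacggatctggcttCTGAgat
Snord87 in Snhg6 (chr1:9942463-9942549, minus strand): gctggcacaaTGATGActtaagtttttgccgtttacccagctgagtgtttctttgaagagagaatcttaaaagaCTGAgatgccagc
Snora24 in Snhg8 (chr3:123507937-123508066, minus strand): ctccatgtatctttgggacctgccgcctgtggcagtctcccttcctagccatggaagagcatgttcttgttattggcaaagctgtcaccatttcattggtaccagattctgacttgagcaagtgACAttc
Read on the snoRNA's own strand, TGATGA within the first 20 bases together with CTGA in the last 15 bases was found in 20 of the 33, and ACA with 2 to 4 bases after it in 7 of the rest. In 6 neither was found in these exact letters. Of the 1507 snoRNA genes in the annotation, 20.2% held the first pair and 43.0% the second.

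Total counts ran from 1530781 to 4335653 per library, and the 3 shallowest libraries were from WT mice. Levels are given as CPM, counts relative to library sizes that were scaled by the trimmed mean of M values (TMM). Differences are log2 fold changes, Rank-knockout minus WT, with their standard error (SE), and p values are from edgeR's quasi-likelihood F-test, adjusted over all 9855 genes with a threshold of 0.05. The mean level of Tnfrsf11a was 60.7 ± 17.7 CPM for the WT and 38.0 ± 8.64 CPM for the Rank-knockout libraries (SD, n = 4 each), with overlapping libraries, and fell by 0.67 on the log2 scale with an SE of 0.22 (edgeR adjusted p = 0.0321). 3′ tags can lie outside the deleted exons, so its level checks nothing about the labels. Markers of other cell types were present at different levels. Summed over 9 stromal and muscle genes they ran from 9.98 to 18.2 CPM for WT and from 5.84 to 19.9 CPM for Rank-knockout. Summed over 9 T cell genes they ran from 183.0 to 279.6 CPM for WT and from 123.2 to 198.9 CPM for Rank-knockout, most of it Gzma, a granzyme gene, with means of 180.2 and 131.7 CPM. The B and plasma cell genes summed to 6.83 to 10.6 CPM for WT and 0.45 to 4.88 CPM for Rank-knockout, with Cd79a at 0 in all libraries. Gzma and Cd79a were named after their values were seen.

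Most of these 9 snoRNA host genes were higher in the Rank-knockout epithelium. The test called 6 of the 9 higher (Gas5, Snhg1, Snhg5, Snhg6, Zfas1 and Epb41l4aos), against 15.8% of all tested genes. None was called lower, against 14.6% of all tested genes, and all 9 log2 fold changes were above 0, from 0.64 to 1.87. Their median was 1.01, against 0.02 for all tested genes, and 6.12% of all tested genes had a log2 fold change over 1. In 6 of the 9 the lowest Rank-knockout library lay above the highest WT library, against 14.4% of all tested genes. These shares are a description only, because the 9 were chosen with earlier results of these data known. Snhg6, in both counts of 6, met the low-count filter through its Rank-knockout libraries. Of 6 other noncoding snoRNA host genes tested, 1 was called higher, and their median was 0.44. Summed over the 9 genes, the level was 583, 499.2, 484.9 and 441.3 CPM in WT replicates 1 to 4 and 1116, 933.6, 1013 and 764.5 CPM in the Rank-knockout replicates. In tissue RNA of this kind, more cells of one type and more RNA per cell cannot be told apart.

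**Figure D1:**
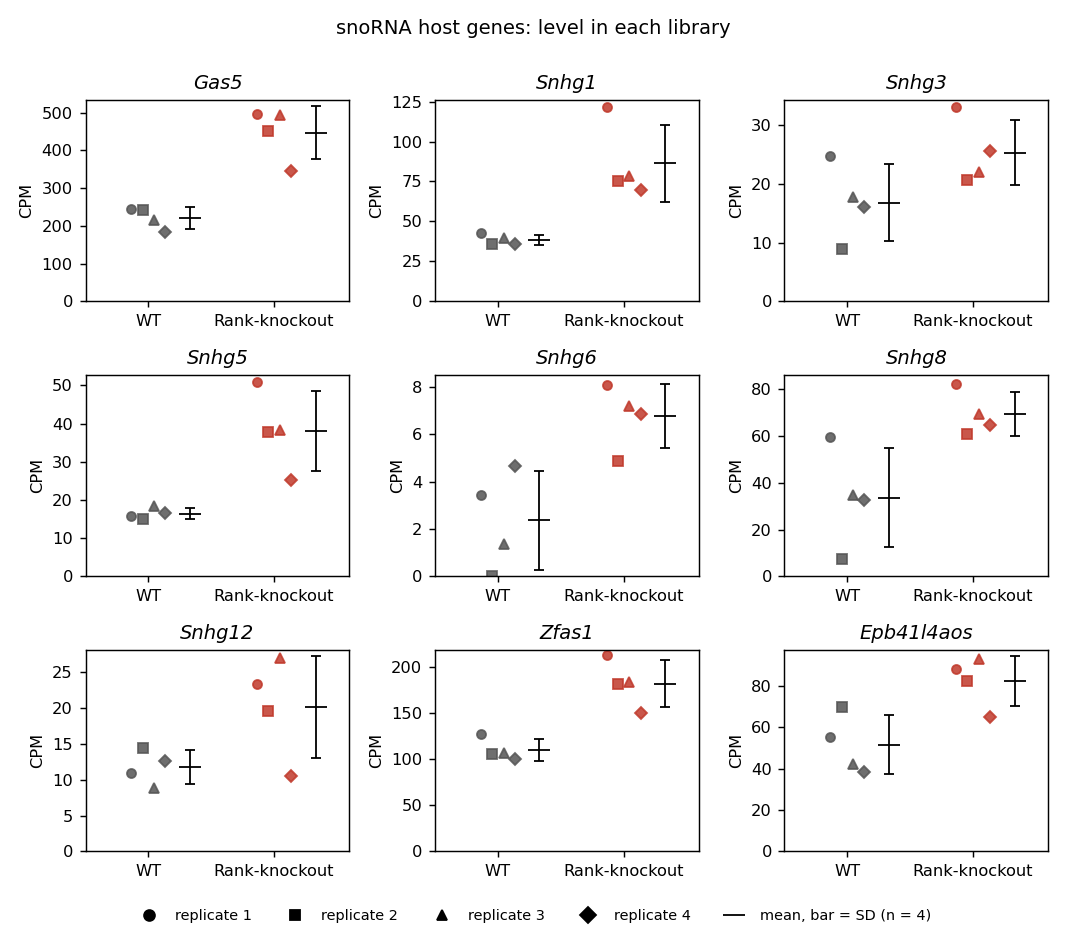
CPM of each snoRNA host gene (vertical axis, from 0, scaled for each gene) in the 4 WT and the 4 Rank-knockout libraries; each symbol is 1 library and the black bar is the mean with its SD. The genotypes do not overlap for Gas5, Snhg1, Snhg5, Snhg6, Snhg8 and Zfas1, and WT replicate 2 lies far below the other WT libraries for Snhg8.

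Among the hosts of box C/D snoRNAs, Gas5 (growth arrest specific 5; GRCm38 chr1:161034422-161038539, plus strand) carried 10 annotated snoRNA genes. It takes its name from its accumulation in cells whose growth has stopped. Its level was 243.9, 241.5, 215.1 and 183.7 CPM in WT replicates 1 to 4 and 495.6, 451.0, 495.0 and 346.1 CPM in the Rank-knockout replicates. Rank-knockout replicate 4 was the lowest of its genotype and still lay above every WT library. The mean rose from 221.0 ± 28.1 to 447.0 ± 70.4 CPM (SD, n = 4 each), or by 1.01 on the log2 scale with an SE of 0.15 (edgeR adjusted p = 0.000388). Gas5 gave 44.1% of the summed tags of the 9 genes in WT and 46.7% in Rank-knockout.

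Snhg1 (chr19:8723475-8726443, plus strand) held 8 snoRNA genes, among them Snord22. It was at 42.5, 36.0, 39.6 and 35.9 CPM in WT and at 121.8, 75.4, 78.2 and 69.9 CPM in Rank-knockout. The WT libraries were close together, and Rank-knockout replicate 1 stood above the other 3 of its genotype. Snhg1 rose by 1.18 on the log2 scale with an SE of 0.19 (edgeR adjusted p = 0.000542), and without Rank-knockout replicate 1 the value was 0.96 and still called.

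Snhg5 (chr9:88521050-88522929, minus strand) held 2 snoRNA genes, Snord50a and Snord50b, whose sequences differ at 1 of 72 bases. It was at 15.8, 14.9, 18.4 and 16.6 CPM in WT and at 50.9, 37.9, 38.2 and 25.3 CPM in Rank-knockout. The WT libraries spanned a narrow range, whereas the highest Rank-knockout library, replicate 1, and the lowest, replicate 4, stood well apart, and both were above all of WT. The rise was 1.23 on the log2 scale with an SE of 0.23 (edgeR adjusted p = 0.00113).

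Zfas1 (named as the antisense RNA of Znfx1; chr2:167062934-167065862, plus strand) held 3 box C/D snoRNA genes. Its level was 126.7, 105.9, 106.5 and 100.5 CPM in WT and 212.3, 180.9, 183.0 and 150.3 CPM in Rank-knockout. Replicate 1 was the highest library of each genotype and replicate 4 the lowest, and the genotypes did not overlap. Its rise of 0.73 on the log2 scale, with an SE of 0.15 (edgeR adjusted p = 0.00192), was smaller than those of Gas5, Snhg1 and Snhg5, and the differences between these genes were not tested.

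Snhg6 (chr1:9941959-9944118, minus strand), with Snord87 in an intron, was the rarest of the 9. It had 5, 0, 2 and 7 counts in WT and 38, 13, 16 and 26 counts in Rank-knockout. WT replicate 2, the deepest library, had none of its 4335653 counts on the gene, a count that allows up to 0.76 CPM. Snhg6 met the low-count filter through its Rank-knockout libraries, where it is high, and WT alone would not have passed. Its test below therefore depends on the group where it is high. The mean was 2.36 ± 2.08 CPM for WT and 6.75 ± 1.35 CPM for Rank-knockout, a difference of 1.87 on the log2 scale with an SE of 0.60 (edgeR adjusted p = 0.0298). Only 8 of the 9855 tested genes had a larger fold change, but this value rested on few tags. It fell to 1.09 without WT replicate 2, with an edgeR adjusted p of 0.0614, and the gene was no longer called either when WT replicate 3 (1.76) or the Rank-knockout replicates 1 (1.76) or 3 (1.84) were left out in turn.

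Among the hosts of box H/ACA snoRNAs, Snhg8 (chr3:123507552-123508404, minus strand), which carries Snora24, was at 59.6, 7.6, 34.8 and 32.6 CPM in WT and at 82.4, 60.8, 69.2 and 64.9 CPM in Rank-knockout. The genotypes did not overlap, but only narrowly, since WT replicate 1 nearly reached the lowest Rank-knockout library, while WT replicate 2 was far below the rest. The difference of 1.13 on the log2 scale had an SE of 0.49 and did not pass the test (edgeR adjusted p = 0.116). Without WT replicate 2 it was 0.71 and passed (edgeR adjusted p = 0.0128), and without WT replicate 1 it was 1.57 and passed as well (edgeR adjusted p = 0.019).

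Snhg3 (chr4:132348014-132353686, minus strand) carries the near-identical pair Snora73a and Snora73b, known as U17. It was at 24.7, 8.87, 17.8 and 16.0 CPM in WT and at 33.1, 20.6, 22.0 and 25.6 CPM in Rank-knockout. WT replicate 1 lay within the Rank-knockout libraries, and WT replicate 2 was again the lowest. The difference was 0.68 on the log2 scale with an SE of 0.27 (edgeR adjusted p = 0.0709), and it passed without WT replicate 1 (0.90). Without WT replicate 2 it was 0.39, and without Rank-knockout replicate 1 it was 0.52, and neither passed. Of its 986 exonic bases 135 are also exonic in Rcc1 on the same strand, the gene for a chromatin-bound exchange factor of the GTPase Ran. Rcc1 itself went from 86.0 ± 26.8 CPM to 200.1 ± 35.8 CPM, a rise of 1.24 on the log2 scale with an SE of 0.22 (edgeR adjusted p = 0.00106), and had its lowest level, 49.4 CPM, in WT replicate 2. How reads over exons of both genes were treated is not stated, so their counts are uncertain there.

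Epb41l4aos, transcribed on the strand opposite to its neighbour Epb41l4a (chr18:33794892-33795986, plus strand), has 1 snoRNA gene in an intron. It was at 55.5, 69.9, 42.3 and 38.6 CPM in WT and at 88.3, 82.6, 93.1 and 65.1 CPM in Rank-knockout. WT replicate 2 was the highest of WT here and lay above Rank-knockout replicate 4, so the genotypes overlapped. Epb41l4aos rose by 0.64 on the log2 scale with an SE of 0.19 (edgeR adjusted p = 0.0183), but was not called when WT replicate 3 (0.54), WT replicate 4 (0.50) or the Rank-knockout replicate 3 (0.58) was left out.

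Snhg12 (chr4:132308623-132311024, plus strand) is a mixed host, with the box H/ACA snoRNAs Snora16a, Snora44 and Snora61 and the box C/D snoRNA Snord99. It was at 11.0, 14.4, 8.88 and 12.7 CPM in WT and at 23.4, 19.5, 27.0 and 10.5 CPM in Rank-knockout. Rank-knockout replicate 4 fell among the WT libraries, and the other 3 lay above them. The difference of 0.72 on the log2 scale, with an SE of 0.28 (edgeR adjusted p = 0.0638), passed without that library (0.94) and without WT replicate 2 (0.86).

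**Figure D2:**
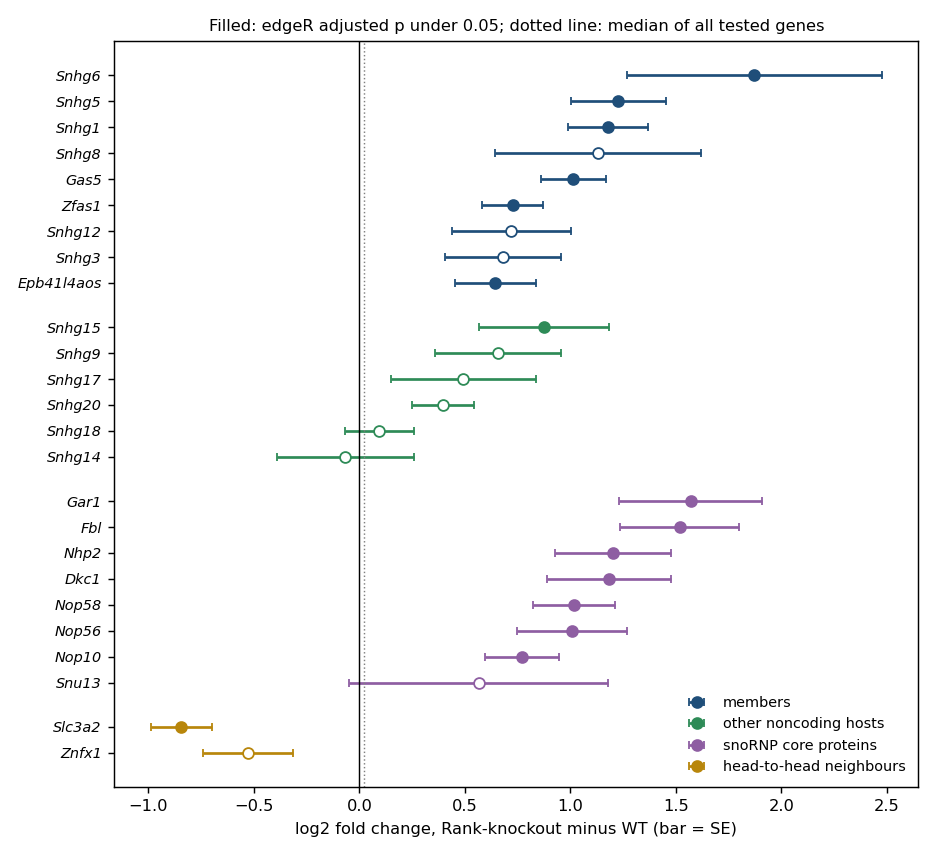
Log2 fold change, Rank-knockout minus WT, with its SE, for the 9 host genes, the 6 other noncoding hosts tested, the 8 snoRNP core proteins and the 2 head-to-head neighbours tested; filled points passed the edgeR test. All 9 host genes lie right of 0, while Slc3a2, which starts beside Snhg1, lies left of it.

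The libraries of a genotype did not shift all members together. Rank-knockout replicate 1 was the highest of its genotype for 7 of the 9 genes, and Rank-knockout replicate 4 the lowest for 6. In WT replicate 2, Snhg8, Snhg6 and Snhg3 lay below the mean of the other 3 WT libraries by log2 ratios of -2.33, -2.05 and -1.05, and only 24, 51 and 377 of the 9855 tested genes had ratios as low. In the same library Epb41l4aos (0.61) and Snhg12 (0.39) were above that mean. Dixon's test for an outlying value set none of the 9 members apart in this library. Over all tested genes it set this library apart from the other 3 of its genotype on the low side in 0.863% of genes. On the high side the share was 1.04%.

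**Figure D3:**
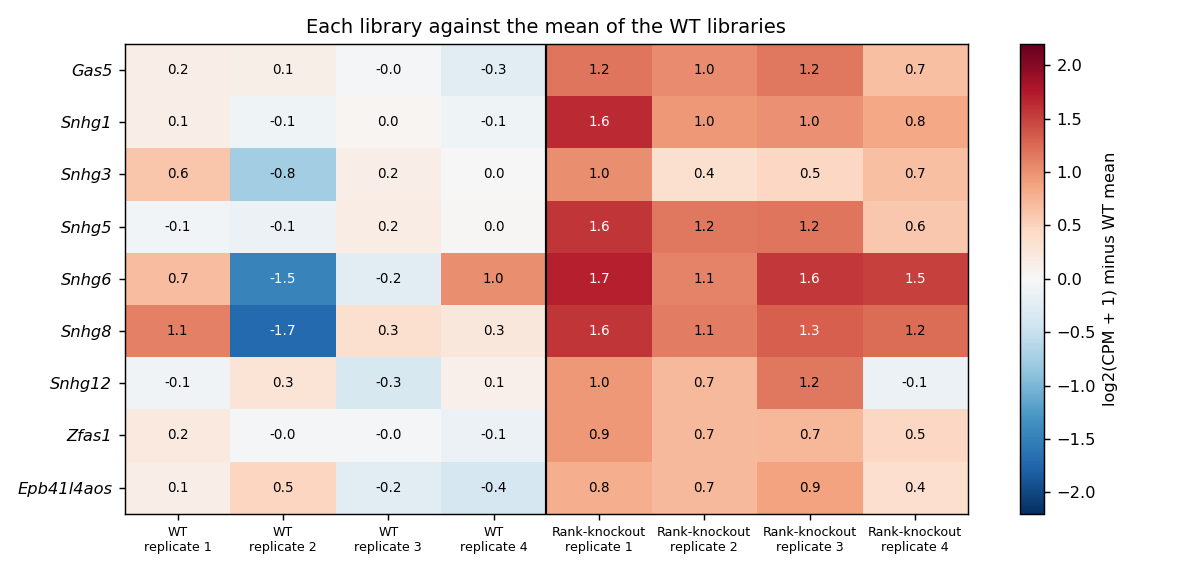
Level of each host gene in each library, as log2(CPM + 1) minus the mean of the 4 WT libraries (colour and printed value), with WT on the left of the black line. The Rank-knockout columns are positive apart from Snhg12 in replicate 4, and WT replicate 2 is negative mainly for Snhg3, Snhg6 and Snhg8.

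As a description over the 8 libraries, which all 9 genes share, deviations from the genotype means were correlated between members with a median r of 0.37 over 36 pairs, 27 of them positive. The highest was 0.93, for Snhg3 with Snhg8, and the lowest was -0.59, for Snhg6 with Epb41l4aos. Gas5 went with Epb41l4aos (0.85) and Zfas1 (0.83), and Snhg6 with Snhg8 (0.85). The values for Snhg3, Snhg6 and Snhg8 share the low WT replicate 2.

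The snoRNA genes themselves were nearly absent from the counts. Of the 33 inside the members, 30 had 0 counts in all 8 libraries. These included all 29 that lie within an exon of at least 1 annotated host transcript and Snora73a, which lies partly in one. The 3 with counts were those in an intron of every transcript, Snora73b, Snord87 and the snoRNA gene of Epb41l4aos. A read over both a host exon and a snoRNA gene belongs to both, and its treatment is not stated. The zeros of the 30 rows that share bases with a host exon therefore do not show that those snoRNAs were absent. Over all rows 1385 of 1507 snoRNA genes were at 0 in every library.

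Snora73b was the only snoRNA of the 33 with enough counts for the test. Its letters are shown beside those of Snora73a because the 2 are 96.6% identical, which makes their counts uncertain. Capitals here mark the 7 of 205 bases that differ.
Snora73b in Snhg3 (GRCm38, chr4:132352322-132352526, minus strand): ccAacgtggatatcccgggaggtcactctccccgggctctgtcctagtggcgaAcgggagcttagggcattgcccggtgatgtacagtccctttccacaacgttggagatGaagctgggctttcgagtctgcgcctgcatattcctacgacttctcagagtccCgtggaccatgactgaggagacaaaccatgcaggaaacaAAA
Snora73a in Snhg3 (GRCm38, chr4:132352775-132352979, minus strand): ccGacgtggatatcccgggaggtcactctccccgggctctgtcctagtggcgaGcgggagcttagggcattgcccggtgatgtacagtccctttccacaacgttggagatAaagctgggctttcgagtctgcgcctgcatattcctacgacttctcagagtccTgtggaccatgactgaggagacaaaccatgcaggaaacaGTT
Snora73b was at 4.79, 14.2, 8.88 and 6.66 CPM in WT and at 25.3, 17.3, 12.1 and 14.5 CPM in Rank-knockout. WT replicate 2, the lowest for the host Snhg3, was the highest of WT for the snoRNA and overlapped the Rank-knockout libraries. The Snora73b row rose by 0.90 on the log2 scale with an SE of 0.31 (edgeR adjusted p = 0.0396). It also lies within the bounds of Rcc1 on the same strand, which rose by 1.24. Mature snoRNAs lack the poly(A) tail that the kit reads, so which RNA gave these tags is not known. This call was not examined under the other settings. Snord87 was at 3.40 ± 1.38 CPM for WT and 2.51 ± 1.13 CPM for Rank-knockout, from 30 counts each, with overlapping libraries and no test, while its host Snhg6 had 14 and 93 counts. WT replicate 2 had 16 counts of Snord87 and 0 of Snhg6.

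For 4 members another gene starts within 2000 bases on the opposite strand. Snhg1 and Slc3a2, the heavy chain of an amino acid transporter, start 106 bases apart and are transcribed away from each other without overlap. Slc3a2 was at 284.3, 357.5, 325.8 and 370.1 CPM in WT and at 157.3, 186.1, 184.3 and 218.5 CPM in Rank-knockout. Every Rank-knockout library was below every WT library, the reverse of Snhg1, and Slc3a2 fell by 0.84 on the log2 scale with an SE of 0.14 (edgeR adjusted p = 0.000748). Zfas1 and Znfx1, a zinc finger protein gene, start 81 bases apart, with 82 exonic bases of Zfas1 also exonic in Znfx1 on the other strand, and Znfx1 had means of 68.7 ± 15.9 CPM for WT and 46.7 ± 12.6 CPM for Rank-knockout. The libraries overlapped, and the difference of -0.53 on the log2 scale, with an SE of 0.21, did not pass (edgeR adjusted p = 0.0697), but did so when WT replicate 2 (-0.70) or the Rank-knockout replicate 4 (-0.72) was left out. Zbtb37, which starts inside Gas5 and 427 bases from its start, had too few counts for the test, with 34 in WT and 69 in Rank-knockout. Gm17300, which lies inside Snhg3 on the opposite strand and starts 1914 bases from its start, had none.

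The letters at the start of 4 members, 3 of them picked for a run across the start, are shown because TOP transcripts begin with a C and an unbroken run of C and T. The windows are from RefSeq on GRCm38.p6 and run from 20 bases before the annotated start to 39 bases after it, and capitals mark the longest run of C and T in each. Of the 2 RefSeq starts of Gas5 the downstream one is shown.
Gas5 (chr1:161035146-161035205, plus strand): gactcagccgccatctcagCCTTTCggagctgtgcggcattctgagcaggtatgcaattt
Snhg1 (chr19:8723467-8723526, plus strand): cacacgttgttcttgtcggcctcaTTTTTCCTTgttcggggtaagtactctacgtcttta
Snhg8 (chr3:123508297-123508356, minus strand): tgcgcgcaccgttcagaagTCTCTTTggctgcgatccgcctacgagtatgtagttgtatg
Snhg12 (chr4:132308658-132308717, plus strand): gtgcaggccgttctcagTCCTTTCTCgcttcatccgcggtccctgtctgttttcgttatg
The run lies across the annotated start in Gas5, Snhg8 and Snhg12, and after it in Snhg1. Runs at least as long, anywhere in the same 60 bases, were found in 48.9%, 33.2%, 14.6% and 14.6% of all 32851 windows, and the share with a run across the start was not counted. In the 4 windows not shown the longest run did not lie across the start. It had 3 bases at the upstream start of Gas5, 4 in Zfas1, 5 in Snhg3 and 7 in Snhg5, and 97.7%, 88.6%, 70.4% and 33.2% of all windows held one as long. A stricter pattern, C followed by 6 or more C or T beginning within 20 bases of the start, was found on the transcribed strand in 1 of the 8 windows of 7 members (Snhg12), against 20.3% of all windows, and on the other strand in 2 of the 8, against 23.3%. The letters CACGTG, which read the same on both strands, were in none of the 8 windows of 300 bases, against 7.15% of all.

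Of the other noncoding snoRNA host genes listed, 9 of 12 were in the table by symbol and 6 could be tested. Snhg15 rose from 5.71 ± 2.0 to 10.6 ± 2.50 CPM (0.87 on the log2 scale, SE 0.31, edgeR adjusted p = 0.0411) and was the only one called, 1 of 6 against 15.8% of all tested genes. Snhg20 had means of 49.3 ± 3.94 and 65.3 ± 4.51 CPM, without overlap, and just missed the threshold (log2 fold change 0.40, edgeR adjusted p = 0.0502). Snhg9 (0.66), Snhg17 (0.49), Snhg18 (0.09) and Snhg14 (-0.07) did not pass, and the median of the 6 was 0.44. The call count of this list was unstable, being 0 with DESeq2 and with limma-voom, and 0 to 2 when single libraries were left out.

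Many snoRNAs lie in the introns of protein-coding genes, mostly of ribosomal proteins and translation factors. Of 29 such hosts tested 24 were higher in Rank-knockout, against 15.8% of all tested genes, with a median log2 fold change of 1.01, the same as for the 9 members to 2 decimals. Among those with the smallest p were the ribosomal protein genes Rpl4 (1.11), Rpl27a (1.26) and Rpl13 (1.47). Ribosomal protein genes have many near-identical pseudogenes, so their counts are uncertain.

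Genes for the proteins that bind snoRNAs moved in the same direction. In the test 7 of 8 core protein genes were higher, against 15.8% of all tested genes, with a median log2 fold change of 1.10. Of these 7, Nop56, Nop58 and Dkc1 also carry intronic snoRNAs and are counted among the 24 coding hosts above. Of the box C/D particle, the methyltransferase Fbl rose from 10.0 ± 2.58 to 30.7 ± 10.8 CPM (1.52, SE 0.28, edgeR adjusted p = 0.00124), and its partners Nop56 (1.01) and Nop58 (1.02) rose as well. Of the H/ACA particle, the pseudouridine synthase Dkc1 rose from 114.3 ± 42.7 to 263.3 ± 78.9 CPM (1.18, SE 0.29, edgeR adjusted p = 0.012), as did Gar1 (1.57), Nhp2 (1.2) and Nop10 (0.77). Snu13, the protein that first binds the box C/D RNA, had a log2 fold change of 0.57 with an SE of 0.61 and did not pass. Of 12 assembly and nucleolar factors 7 were higher, against the same 15.8%, among them the ATPase subunit Ruvbl2 (2.06), the nucleolar proteins Tcof1 (1.29) and Nolc1 (1.24) and the rRNA methyltransferase Nop2 (0.67). When single libraries were left out the 7 became 3 to 8, with 3 if WT replicate 4 or Rank-knockout replicate 1 was absent (against 10.0% and 10.8% of all genes tested then) and 4 if WT replicate 1 or 3 or Rank-knockout replicate 2 was absent.

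Other TOP mRNAs, mostly of translation factors and without ribosomal proteins, were higher in 12 of 15 cases, against 15.8% of all tested genes, with a median of 0.77 and with Eef1g (1.04), Eef1b2 (0.97), Eef1d (0.86) and Rack1 (1.01) as those with the smallest p. Of 13 genes for regulators of TOP mRNAs 4 were higher, against 15.8% of all tested genes, with a median of 0.31. They were Larp1 (0.55), which binds the TOP cap, the poly(A) binding proteins Pabpc1 (0.56) and Pabpc4 (0.65), and the cap-binding protein Eif4e (0.52). The lists share genes: 4 of the 15 TOP mRNAs, Eef1b2, Eef2, Rack1 and Tpt1, are also coding hosts, and Pabpc1 is in both TOP lists. Only 1 of the 13 regulators was called without WT replicate 4 or the Rank-knockout replicates 1 or 3, and 2 without Rank-knockout replicate 2. Of 17 nonsense-mediated decay factors 3 were higher, a share near the 15.8% of all tested genes, with a median of 0.28. They were Magoh (0.89) and Magohb (1.63), core parts of the exon junction complex, and the decay factor Upf3b (0.50), while Rbm8a (0.47, edgeR adjusted p = 0.0538) did not pass. Without WT replicate 2 the test called 5 of the 17.

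**Figure D4:**
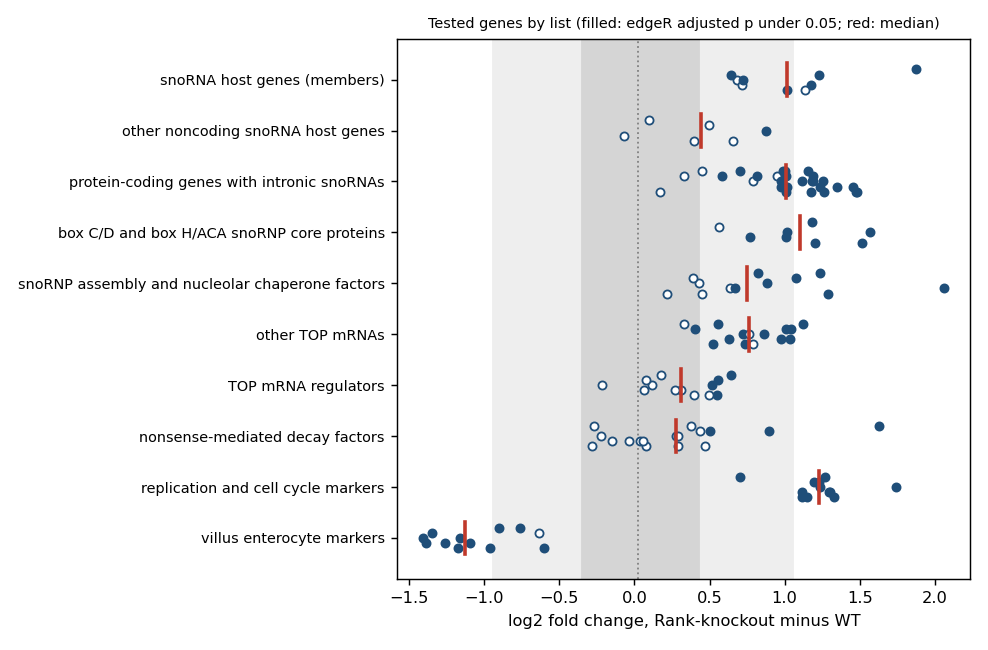
Log2 fold change, Rank-knockout minus WT, of every tested gene of each list (points, filled where the edgeR test was passed) with the list's median in red; the dark and light grey bands hold the middle 50% and 90% of all tested genes. The 9 host genes lie right of the dark band, with a median close to those of the coding hosts and the snoRNP core proteins.

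Cell type markers moved with the same comparison, in which 15.8% of all tested genes were called higher and 14.6% lower. Of 12 replication and cell cycle genes 12 were higher in Rank-knockout, with a summed level of 547.8 to 861.3 CPM for WT and 1408 to 2213 CPM for Rank-knockout. Of 12 villus enterocyte genes 11 were lower, with a summed level of 28000 to 39980 CPM for WT and 13560 to 19130 CPM for Rank-knockout. Crypt stem cell genes were higher in 4 of 7 cases, from 330.5 to 481.6 CPM for WT and from 494.5 to 1075 CPM in Rank-knockout. Of 6 T cell genes tested, none was called by edgeR, DESeq2 or limma-voom and 1 had an unadjusted edgeR p under 0.05. No B and plasma cell gene passed the low-count filter for edgeR, and DESeq2, run without it, called 1 of them, Jchain, the joining chain of secreted antibodies, which was at 5.35 ± 1.86 CPM for WT and 1.98 ± 1.06 CPM for Rank-knockout without overlap. Jchain was named after its values were seen. The part of these shifts in the levels of the snoRNA host genes was not tested.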

How the data were processed

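QuantSeq 3′ mRNA-seq libraries of intestinal epithelial cells were analysed from 4 WT and 4 Rank-knockout mice, grouped by the genotype label. The authors trimmed the reads, removed those from ribosomal, mitochondrial and other abundant sequences, aligned them to GRCm38 (mm10) with STAR and used featureCounts in its strand-specific setting. The deposited values are raw counts per gene, without normalization. Molecular identifiers are not mentioned, so intervals and floors cover counting error only. Low totals limit the precision of genes with few tags.

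Members, lists and alternatives were chosen with earlier results of these data known. Named genes were the members, tested noncoding hosts and snoRNP core genes, up to 4 genes of smallest p per other list, head-to-head neighbours within 2000 bases and Tnfrsf11a. A gene selected this way is not reported here. Rcc1 and the snoRNA rows were added for their position. Gzma, Cd79a and Jchain were added after their values were seen. Symbols and positions came from GENCODE M21. Start windows from RefSeq (GRCm38.p6) were matched by symbol and covered 7 of 9 members.

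The counts were tested with edgeR 4.0.16 (filterByExpr, TMM, robust quasi-likelihood F-test, genotype as the only term) in R 4.3.3, with Benjamini-Hochberg adjustment over all tested genes. The procedure was tested on simulated data. Alternatives were DESeq2 1.42.0 (the study's tool) and limma-voom (limma 3.58.1) as tests, scaling by RLE, by plain totals or by totals that leave out the 50 most abundant genes, no low-count filter or a mean of at least 5 CPM, the replicate number as a block, thinning to 1530781 counts, and leaving out each library.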

Additional observations from a re-analysis of the deposited data

Results flagged for a closer look

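Among 18 groups of 4 libraries (9 genes in 2 genotypes), 1 held a library far from the other 3 by Dixon's test at the 95% level, where chance alone gives about 1 in 20, or 0.9 of 18. Snhg1 in Rank-knockout replicate 1 was at 121.8 CPM, while the other 3 Rank-knockout libraries were between 69.9 and 78.2 CPM.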

How the results depend on the processing

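All 9 log2 fold changes stayed above 0 under every alternative that gave a value. Gas5, Snhg1, Snhg5 and Zfas1 were called under each of them. Between 5 and 8 members were called under other settings and between 4 (WT replicate 3 or Rank-knockout replicate 3 absent) and 8 (without WT replicate 1) with single libraries left out. Library totals, and totals that leave out the 50 most abundant genes, raised the median of all tested genes by 0.20 and 0.13, and the rises below under these scalings include that shift. Snhg3 passed with library totals (0.88), without the 50 most abundant genes (0.81), with no filter (0.72), with limma-voom (0.84) and with the replicate block (0.66). Snhg12 passed with library totals (0.93), without the 50 most abundant genes (0.85), with no filter (0.75) and after thinning (0.91), and Snhg8 with limma-voom (1.63). Znfx1 passed with no filter (-0.49) and with the replicate block (-0.54). With library totals 2575 genes were called higher and 857 lower, against 1555 and 1438. The other noncoding hosts had 3 calls with library totals, 2 without the 50 most abundant genes, with no filter, with a mean of at least 5 CPM or with the replicate block, and 0 with DESeq2, limma-voom or thinning. In the reported edgeR fit 3 of them had an unadjusted p under 0.05. The decay factors had 5 calls with library totals. The causes were not tested.

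With single libraries left out the log2 fold changes ran from 0.39 to 0.90 for Snhg3, 1.09 to 2.55 for Snhg6, 0.71 to 1.57 for Snhg8, 0.56 to 0.94 for Snhg12, 0.50 to 0.84 for Epb41l4aos and -0.72 to -0.41 for Znfx1. Calls over all genes ran from 1020 (without WT replicate 4) to 1723 higher and from 1097 to 1564 lower. List calls ran from 0 to 2 for other noncoding hosts, 3 to 8 for assembly factors, 2 to 5 for decay factors and 1 to 5 for TOP regulators.

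The labels number the mice 1 to 4 in each genotype, and nothing says that a number marks a shared litter or day. The study's methods say that mice were littermates unless specified otherwise, without naming the litters. Same-numbered libraries deviated together with r from -0.14 to 0.32, and 2 of 4 correlated best with their own number. So few libraries cannot show whether the numbers mark a pairing. With the replicate block 7 members were called in place of 6. Snhg6 gave no value with a mean of at least 5 CPM or after thinning. Genes of few tags, Snhg6 above all, are limited by depth.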
